A study of Rattus norvegicus with 9 samples.

Results

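Schwann cells grown out of skin-derived precursors (SKPs) were compared with Schwann cells isolated from the sciatic nerve, in cultures of adult Sprague Dawley rats. The comparison uses 6 of the 9 arrays of the series, 3 labelled as dorsal trunk SKP-derived Schwann cells and 3 as sciatic nerve Schwann cells, and the arrays were chosen by these labels alone. The series asks whether precursors in the skin can give rise to Schwann cells, and this pair of groups gives how the cells made from SKPs differ in transcript levels from those of a nerve. All features that the platform annotation assigns to 1 gene symbol were used, 15310 of 29214, and they measured 14506 genes.

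SKPs are dividing cells of the dermis that grow as floating spheres. Skin of the dorsal trunk was digested, single cells were grown into spheres, and the SKP-derived Schwann cells came from spheres plated in medium for Schwann cells. The nerve Schwann cells were plated in the same kind of medium from digested sciatic nerves. Both kinds went through a single passage and were lysed once confluent. The remaining 3 arrays hold SKP spheres, which the labels give as a reanalysis of earlier deposited samples, and their levels stand beside the results as a reference without a test. The labels call the samples of a group independent, do not say whether animals were pooled, describe no transgene, treatment, sort or selection step, and give dermis as the tissue even for the nerve cells.

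Schwann cells are the glia of peripheral nerves and descend from the neural crest. They ensheathe axons, and the myelinating ones wrap them in compact myelin under the transcription factors SOX10 and EGR2. Their survival and division depend on neuregulin, which acts through the receptor pair ERBB2 and ERBB3, and in culture without axons they switch most myelin genes down and divide when given mitogens.

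Levels are log2 values after cyclic loess between the arrays, so a difference of 1 is a 2-fold change. A difference is SKP-derived minus nerve Schwann cells. A gene was called, and is said to have risen or fallen, at an adjusted p under 0.05 from limma over all 14506 genes. At this threshold 581 genes (4.01%) were called, 328 higher (2.26%) and 253 lower (1.74%) in SKP-derived Schwann cells. Among the called genes, 150 were higher and 39 lower by at least 1 log2 unit, and 40 were higher and 8 lower by at least 2. For 12368 genes (85.3%) the 95% interval of the difference lay within 1 log2 unit either side of 0, and 227 of the called genes are among them. For 1784 genes that were not called the interval reached beyond that band, so a 2-fold difference was not excluded at this number of arrays. Counts in gene lists are read against shares of all genes tested. Of these, 4.01% were called, 2.26% higher and 1.74% lower. An unadjusted p under 0.05 was found for 25.4%. Every SKP-derived value lay above every nerve value in 15.9%, and every value below in 19.2%. The difference was positive for 6850 genes and negative for 7656.

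These calls rest on all 3 nerve arrays. Without nerve array 1, 2 or 3, limma called 0 genes, with 2419, 2392 and 2523 genes at an unadjusted p under 0.05 and lowest adjusted p-values of 0.051, 0.086 and 0.0788. Without SKP-derived array 1, 2 or 3, it called 635, 620 and 99 genes. All 581 called genes kept their direction in each of these 6 fits. They were called from the same arrays, so this is no independent check. Where the groups do not overlap, leaving out an array cannot turn the sign. The nerve arrays were the more alike, with a median SD per gene of 0.104 against 0.205 among SKP-derived arrays. The mean Euclidean distance over all genes was 32.6 between nerve arrays, 58.9 between SKP-derived arrays and 62.7 (48.4 to 77.2 over 9 pairs) between arrays of the 2 groups, against 136 between SKP-derived Schwann cells and SKPs.

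Arrays labelled 2 were the highest of their group in a list of fibroblast genes. The mean level of 26 dermal mesenchyme genes was 8.22, 8.71 and 7.90 in nerve arrays 1 to 3 and 7.63, 9.31 and 8.24 in SKP-derived arrays 1 to 3, so array 2 was the highest of each group. Without array 2 of both groups, limma called 0 genes, with 2847 at an unadjusted p under 0.05 and a lowest adjusted p of 0.106. The direction of all 581 called genes was kept, which is again no independent check. The deposited arrays also differed in median, 6.82 to 6.87 for nerve and 6.33 to 6.44 for SKP-derived arrays. On the deposited scale the median difference over all genes was -0.45 and 3.99% of 7396 calls were higher, against -0.02 and 56.5% after cyclic loess, so differences quoted for that scale are read against -0.45.

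**Figure D1:**
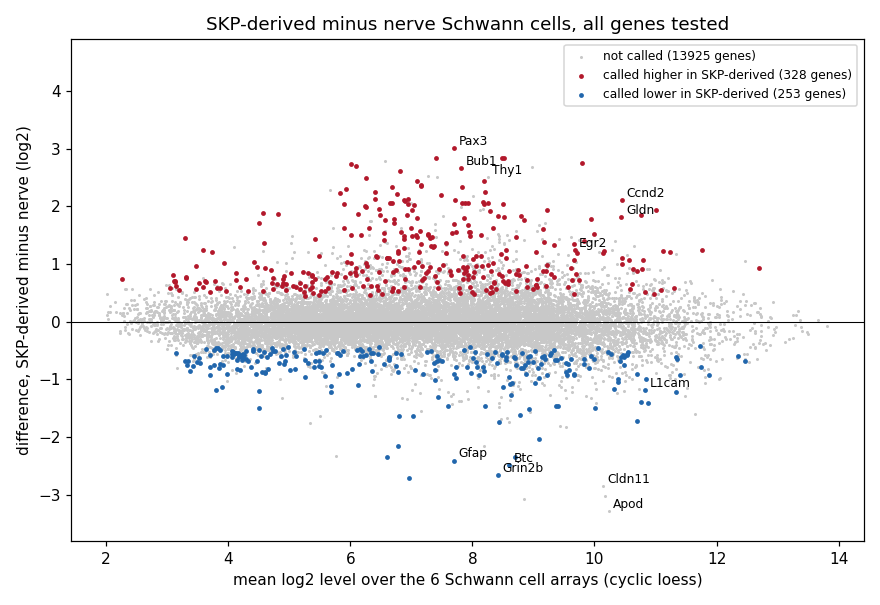
Difference between SKP-derived and nerve Schwann cells (y axis, log2) against the mean log2 level over the 6 Schwann cell arrays (x axis), 1 point per gene for 14506 genes. The 328 genes called higher are red and the 253 called lower are blue, and the grey points include large differences that were not called, such as Apod at -3.29 and Thy1 at 2.51.

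Most genes that define Schwann cells were high in both Schwann cell groups and lower in SKPs, which was the check of the label. Of 23 measured identity genes, 1 rose (S100b) and 2 fell (Gfap and L1cam), against 2.26% and 1.74% of all genes. Their median difference was -0.41 against -0.02 over all genes, and 17 of the 23 differences were negative. In 8 of them every SKP-derived value lay below every nerve value (19.2% of all genes), and in 2 above (15.9%). An interval within 1 log2 unit of 0 was found for 9 of the 23, against 85.3% of all genes. The median was -0.27 without SKP-derived array 2. The mean of the 23 genes was 10.18, 10.09 and 10.17 in the nerve arrays, 10.10, 9.37 and 9.73 in the SKP-derived arrays, and 6.44, 6.56 and 6.52 in the SKP arrays. Not every marker was high. Fabp7, a fatty acid binding protein of immature Schwann cells, was at 5.23 to 5.43 in nerve and 4.97 to 5.18 in SKP-derived cells, and Gap43, a growth-associated protein, at 5.34 to 5.46 and 5.04 to 5.52, both near the levels in SKPs (4.49 to 5.08 and 5.69 to 6.23). These values were picked out after they were seen. In the list mean, SKP-derived array 2 was the lowest of the 6. The same array had the highest mean of the dermal mesenchyme genes, although Col1a2 and Col3a1 of that list were called lower in SKP-derived cells. In RNA from whole cultures, fewer cells of a type and less RNA per cell cannot be told apart, and the part of other cells in these differences was not tested.

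Sox10, the transcription factor that the lineage requires, was at 11.21, 11.37 and 11.43 in the nerve arrays and at 11.23, 10.10 and 10.82 in the SKP-derived arrays, against 6.69 to 6.99 in SKPs. The groups overlapped, and the difference of -0.62 (SE 0.27, 95% interval -1.28 to 0.03) was not called (adjusted p = 0.214). Erbb3, the neuregulin receptor, lay between 12.09 and 12.12 in nerve cells and at 11.89, 10.56 and 11.93 in SKP-derived cells. Its difference was -0.64 (-1.50 to 0.21, adjusted p = 0.3), and SKPs were at 4.57 to 5.22. Ngfr, the low-affinity neurotrophin receptor, differed by -0.83 (-1.82 to 0.15, adjusted p = 0.256), with SKP-derived array 2 the lowest at 10.41. Cdh19, a cadherin of Schwann cell precursors, differed by -0.27 (-0.94 to 0.39), and Sox2, a factor of immature Schwann cells, by -0.97 (-2.17 to 0.24). For Sox10, Erbb3, Ngfr and Sox2 the interval reaches past -1, so a 2-fold lower level in SKP-derived cells was not excluded. Cdh19 turned to 0.02 without SKP-derived array 3. Pou3f1 (Oct6), a factor of promyelinating cells, was at 10.58, 10.42 and 10.47 in nerve cells and 10.91, 9.76 and 11.38 in SKP-derived cells, a difference of 0.20 that changed sign without SKP-derived array 3 (-0.15) and on the deposited scale (-0.03).

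Gfap, the intermediate filament of non-myelinating and immature Schwann cells, was at 8.98, 9.22 and 8.48 in the nerve arrays and at 7.03, 6.44 and 5.99 in the SKP-derived arrays. All 3 SKP-derived values lay below all nerve values and nearer to the SKPs at 5.12 to 5.78. Gfap fell by 2.41 (SE 0.30, 95% interval -3.12 to -1.69, adjusted p = 0.024). L1cam, an adhesion molecule of non-myelinating Schwann cells, fell by 1.19 (SE 0.23, adjusted p = 0.0469), from 11.35 to 11.56 in nerve cells to 10.78, 9.88 and 10.05. S100b, the calcium-binding protein used to stain Schwann cells, was at 10.41, 10.12 and 10.45 in nerve cells and at 11.52, 11.11 and 11.06 in SKP-derived cells, against 5.20 to 7.42 in SKPs. It rose by 0.91 (SE 0.16, adjusted p = 0.0403). Without 1 nerve array the adjusted p of these 3 genes lay between 0.0874 and 0.185, and without SKP-derived array 3 it was 0.0512 for Gfap, 0.103 for L1cam and 0.0681 for S100b. L1cam was also lost without SKP-derived array 2 (0.0599).

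**Figure D2:**
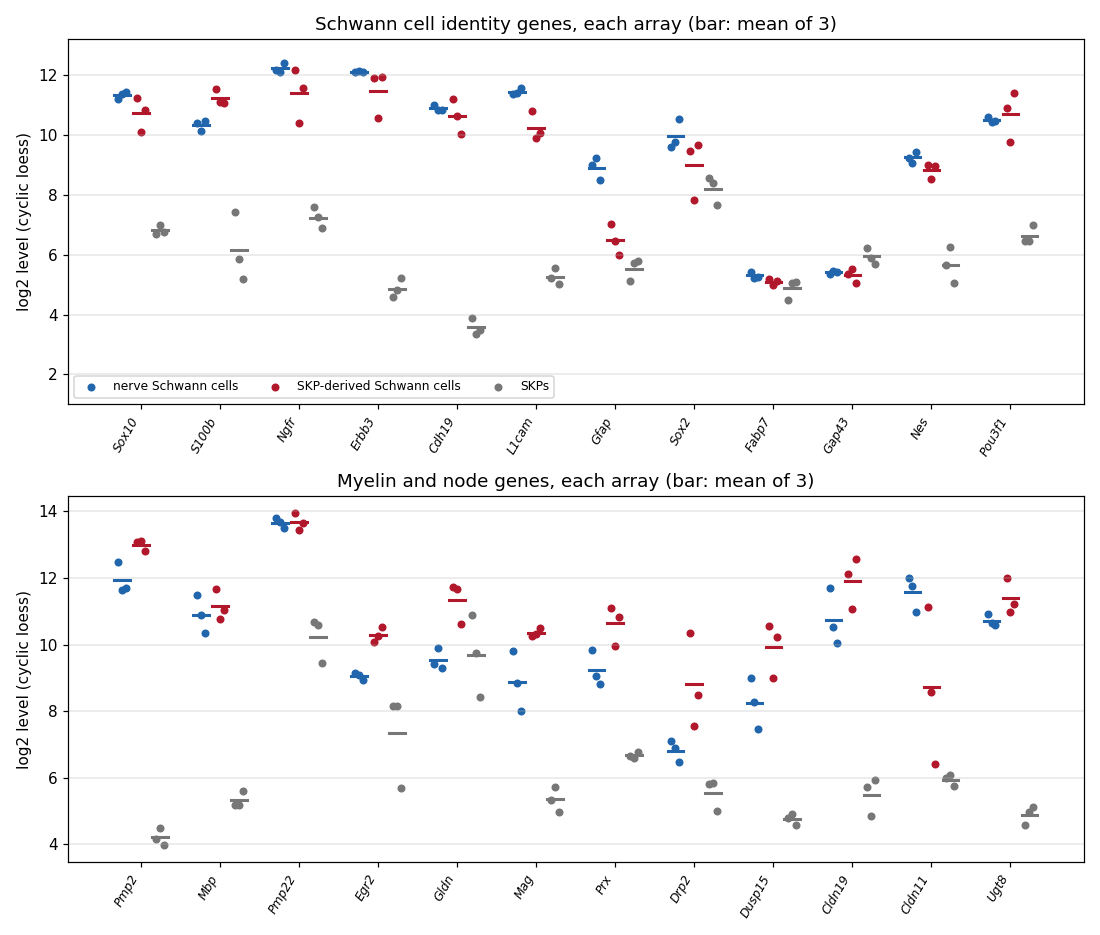
Level (y axis, log2 after cyclic loess) of 12 Schwann cell identity genes (upper panel) and 12 myelin and node genes (lower panel), with 1 point per array and a bar at the mean of 3 arrays. Nerve cells are blue, SKP-derived Schwann cells red and SKPs grey, and Gfap, L1cam, S100b, Egr2 and Gldn are the genes shown whose difference between the 2 Schwann cell groups was called.

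Myelin and node genes were more often higher than lower in SKP-derived cells, though few passed the test. Of 22 measured genes 2 rose (Egr2 and Gldn) and 0 fell, and 17 of the 22 differences were positive, with a median of 0.69 against -0.02 over all genes (0.30 on the deposited scale). In 9 of them every SKP-derived value lay above every nerve value (15.9% of all genes), and in 1 below (19.2%). Without SKP-derived array 1 the median was 0.33, with 1 gene called higher and 1 lower. Egr2 (Krox20), the factor that switches on myelin genes, was at 9.15, 9.09 and 8.93 in nerve cells and at 10.08, 10.27 and 10.52 in SKP-derived cells. Its rise was 1.24 (SE 0.14, adjusted p = 0.0214). Gldn (gliomedin), which Schwann cells secrete to gather sodium channels at nodes, rose by 1.80 (SE 0.32, adjusted p = 0.0393), from 9.43, 9.88 and 9.30 to 11.72, 11.67 and 10.63, with SKPs at 8.41 to 10.90. With any 1 nerve array left out, the adjusted p was 0.0684 to 0.133 for Egr2 and 0.142 to 0.156 for Gldn, and Gldn was also lost without SKP-derived array 1 (0.0629) and array 2 (0.0563).

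Transcripts of the structural myelin proteins were high in both groups. Pmp22, a membrane protein of compact myelin, was at 13.50 to 13.80 in nerve cells and 13.44 to 13.95 in SKP-derived cells, with a difference of 0.02 (-0.35 to 0.40) that turned to -0.02 with quantile scaling. Mbp, the basic protein of compact myelin, differed by 0.25 (-0.55 to 1.06) and by -0.03 without nerve array 3. Pmp2, a fatty acid binding protein of myelin, was at 12.49, 11.63 and 11.71 against 13.08, 13.10 and 12.80. The groups did not overlap, but the difference of 1.05 (0.48 to 1.62) was not called (adjusted p = 0.0629). The following myelin genes were chosen after their values were seen. Mag, an adhesion molecule of myelin, was at 9.81, 8.84 and 7.99 in nerve cells and at 10.24, 10.32 and 10.51 in SKP-derived cells (difference 1.47, adjusted p = 0.0957). Prx (periaxin) and its partner Drp2 differed by 1.40 (adjusted p = 0.0817) and 1.99 (adjusted p = 0.127), and for Drp2 the SKP-derived arrays ran from 7.56 to 10.36. Cldn11, a tight junction protein, went the other way, at 12.00, 11.75 and 10.96 in nerve cells and 11.14, 8.58 and 6.43 in SKP-derived cells (difference -2.85, adjusted p = 0.165).

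Genes of mitosis were higher in SKP-derived cells. Of 21 measured mitosis genes 17 rose and 0 fell, against 2.26% of all genes called higher, and the median difference was 1.93 against -0.02 over all genes. In all 21 every SKP-derived value lay above every nerve value, as in 15.9% of all genes. Their mean was 6.78, 6.18 and 6.10 in the nerve arrays and 7.86, 7.93 and 8.68 in the SKP-derived arrays. SKP arrays 1 and 2 were at 8.15 and 7.61 and SKP array 3 at 5.73, below all nerve arrays. Mki67, Cenpe and Cenpf, which belong to the same list, are not analysed here.

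Cdk1, the kinase that drives entry into mitosis, was at 6.51, 5.67 and 5.74 in nerve cells and at 8.10, 8.06 and 8.84 in SKP-derived cells, a rise of 2.36 (SE 0.30, adjusted p = 0.024). Bub1, a kinase of the spindle checkpoint, rose by 2.66 (SE 0.28, adjusted p = 0.0211), from 6.79, 6.17 and 6.50 to 8.79, 8.91 and 9.73. Top2a, which untangles chromosomes, rose by 2.44 (SE 0.39, adjusted p = 0.0351), from 7.78, 6.75 and 6.38 to 9.23, 9.06 and 9.94. In each of these genes the lowest SKP-derived array stood above the highest nerve array, and nerve array 1 was the highest of its group. Ttk (2.29) and Tpx2 (2.25), which act at the spindle, also rose, as did the mitotic cyclins Ccnb1 (2.19), Ccna2 (2.06) and Ccnb2 (1.52). Plk1 (1.91), Nusap1 (2.11), Kif11 (2.04), Ndc80 (2.05), Kif20a (1.93), Prc1 (1.80), Bub1b (1.63), Aurkb (1.46) and Kif23 (1.41) make up the rest of the 17. These 9, Ccna2 and Ccnb2 lie past the 6 largest of the list and were named after their values were seen. The 4 that were not called differed by 0.69 (Aurka), 0.71 (Birc5), 0.85 (Cenpa) and 1.41 (Cdc20), and were named after their values were seen. Without 1 nerve array the adjusted p of the 17 genes lay between 0.051 and 0.194, and without SKP-derived array 1, 2 and 3 limma kept 13, 14 and 1 of them, Bub1 being the one kept without array 3 (adjusted p = 0.0361, against 0.051 for Cdk1 and 0.0739 for Top2a).

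The promoters of 5 of these genes, from RefSeq (GRCr8, 250 bases before to 50 after the start of the gene), are printed because genes of mitosis share 2 short elements there, the CHR (cell cycle genes homology region) and the CCAAT box. They lie at chr20:19265043-19265342 on the plus strand (Cdk1), chr2:33655176-33655475 on the minus strand (Ccnb1), chr1:186147408-186147707 on the plus strand (Plk1), chr10:84473044-84473343 on the minus strand (Top2a) and chr3:127057045-127057344 on the plus strand (Nusap1). Capitals mark the CHR, searched as TTTGAA and in its other form as TTTAAA, and the box CCAAT, on either strand. On the opposite strand the first form reads TTCAAA and the box reads ATTGG, while the second form reads alike on both.
Cdk1: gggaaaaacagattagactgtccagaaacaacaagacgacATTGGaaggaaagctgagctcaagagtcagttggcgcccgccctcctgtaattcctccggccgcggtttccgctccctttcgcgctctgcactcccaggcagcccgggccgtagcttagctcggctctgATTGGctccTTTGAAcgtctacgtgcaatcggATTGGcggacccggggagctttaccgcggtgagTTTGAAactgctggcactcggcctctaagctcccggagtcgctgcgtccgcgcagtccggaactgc
Ccnb1: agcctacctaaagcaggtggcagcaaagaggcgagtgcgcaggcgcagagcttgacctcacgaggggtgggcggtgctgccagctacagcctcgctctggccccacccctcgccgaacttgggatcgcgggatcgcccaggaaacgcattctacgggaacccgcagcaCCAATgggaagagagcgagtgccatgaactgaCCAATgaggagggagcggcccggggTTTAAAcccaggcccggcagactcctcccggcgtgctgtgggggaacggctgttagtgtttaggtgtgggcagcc
Plk1: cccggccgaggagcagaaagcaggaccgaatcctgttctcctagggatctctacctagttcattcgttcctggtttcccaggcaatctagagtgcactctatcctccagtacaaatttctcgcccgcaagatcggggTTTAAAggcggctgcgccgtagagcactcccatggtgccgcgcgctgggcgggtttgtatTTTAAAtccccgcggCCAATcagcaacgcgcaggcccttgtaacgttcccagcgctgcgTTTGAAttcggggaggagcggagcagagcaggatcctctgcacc
Top2a: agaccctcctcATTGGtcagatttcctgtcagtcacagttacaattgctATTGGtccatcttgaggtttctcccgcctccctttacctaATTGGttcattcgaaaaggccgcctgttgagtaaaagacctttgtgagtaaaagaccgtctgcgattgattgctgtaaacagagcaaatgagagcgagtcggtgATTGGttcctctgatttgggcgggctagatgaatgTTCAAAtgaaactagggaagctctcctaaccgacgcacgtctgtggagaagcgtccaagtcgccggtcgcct
Nusap1: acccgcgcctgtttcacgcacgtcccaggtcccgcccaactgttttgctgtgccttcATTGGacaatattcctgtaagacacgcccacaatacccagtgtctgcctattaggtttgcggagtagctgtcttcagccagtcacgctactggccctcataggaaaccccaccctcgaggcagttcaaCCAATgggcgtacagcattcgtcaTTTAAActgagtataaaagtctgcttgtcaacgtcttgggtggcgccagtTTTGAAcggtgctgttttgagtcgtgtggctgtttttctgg

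Counted back from the start, the Cdk1 promoter holds TTTGAA at -72 and -16, and Ccnb1 holds TTTAAA at -25 behind CCAAT boxes at -82 and -50. Of the 17 called mitosis genes 14 had a promoter in the table, and 14 of 14 held a CHR match, against 23.8% of the promoters of all genes tested (2849 of 11951) and 27.9% of all promoters in the table. A CCAAT box was in 11 of 14 (78.6%), against 38.3% of the genes tested. Over all measured mitosis genes, called or not, 18 of 18 promoters held a CHR match. Among the called DNA replication genes it was 0 of 5, and 4 of 5 held a CCAAT box. Of all measured replication genes, 3 of 19 promoters (15.8%) held a CHR match. Over all called genes, a CHR match was in 38.8% of promoters of genes called higher and 22.8% of those called lower. An interferon-stimulated response element, searched on both strands, was in 3.66% of promoters of genes called higher against 3.41% of all tested, and a CArG box in 1.1% against 1.28%. CHR and CCAAT were chosen after the cell cycle genes were seen to be higher, and a match is a description of the sequence only.

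**Figure D3:**
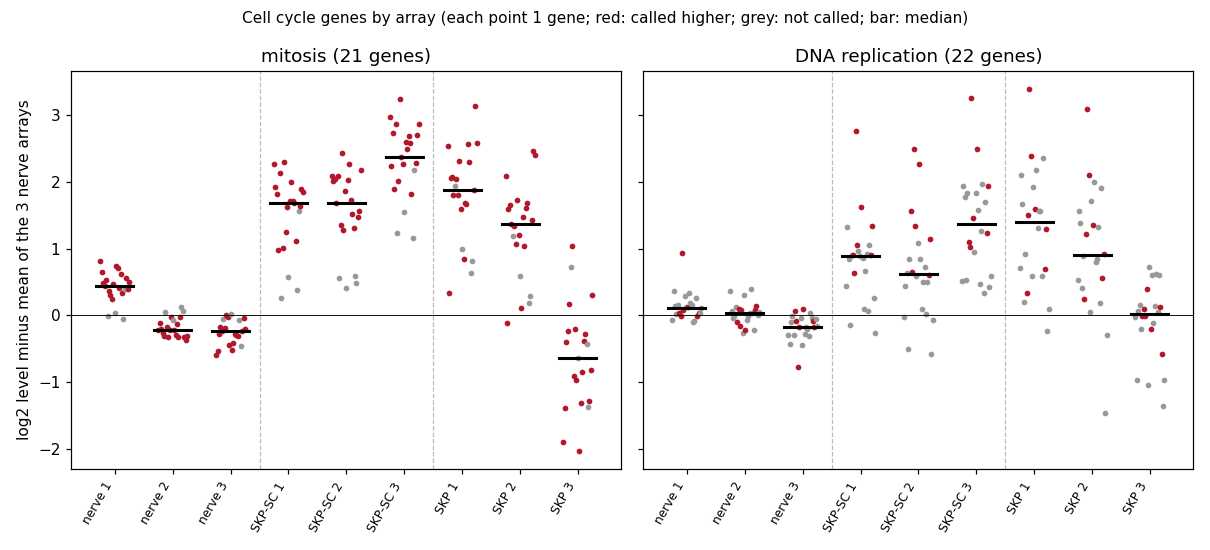
Level of each mitosis gene (left, 21 genes) and DNA replication gene (right, 22 genes) in each of the 9 arrays, as log2 minus the mean of the 3 nerve arrays (y axis), with 1 point per gene, red where it was called higher and grey where it was not, and a bar at the median. The medians of all 3 SKP-derived arrays lie above those of the nerve arrays in both panels, and SKP array 3 lies below SKP arrays 1 and 2.

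Of 22 measured genes of DNA replication 7 rose and 0 fell, against 2.26% and 1.74% of all genes. Of the 22 differences 21 were positive, and the median was 1.09 against -0.02 over all genes. Rrm2, the regulated subunit of ribonucleotide reductase, was at 8.04, 6.95 and 6.33 in nerve cells and at 9.87, 9.59 and 10.36 in SKP-derived cells, a rise of 2.83 (SE 0.43, adjusted p = 0.0307). Its partner Rrm1, named after its value was seen, rose by 0.77, though a second feature of Rrm1 differed by 0.12 (adjusted p = 0.579). Ccne2, the cyclin of S phase entry, rose by 2.12, the polymerase subunits Pole and Pola1 by 1.47 and 0.91, Tyms, which makes thymidylate, by 1.28, and Pcna, the clamp of the replication fork, by 1.19. Ccnd2, a D-type cyclin that answers to growth factors, was at 9.03, 9.71 and 9.43 against 11.16, 11.39 and 11.95, a rise of 2.11 (SE 0.25, adjusted p = 0.0224). It was the only one of 15 D cyclin and CDK inhibitor genes to be called, against 4.01% of all genes. Cdkn1a, an inhibitor of CDKs named after its value was seen, differed by 1.02 (0.15 to 1.89, adjusted p = 0.149). With any 1 nerve array left out, the adjusted p of the 7 replication genes lay between 0.0554 and 0.176 and that of Ccnd2 between 0.0684 and 0.125, and Ccnd2 stayed called without any 1 SKP-derived array. Without array 3, Pcna (0.067), Rrm1 (0.0603), Rrm2 (0.0732) and Pola1 (0.067) were lost, and without array 1, Rrm2 (0.0504) and Pola1 (0.0636).

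Pax3, a transcription factor of the neural crest and of Schwann cell precursors, rose the most of all called genes. It was at 6.52, 6.14 and 5.90 in nerve cells and at 9.28, 8.63 and 9.68 in SKP-derived cells, while the SKP arrays were at 5.70, 6.01 and 6.27. Only the SKP-derived Schwann cells stood high, and the nerve and SKP values overlapped. The rise was 3.01 (SE 0.29, 95% interval 2.33 to 3.70, adjusted p = 0.0192), or 8.07-fold, and 2.58 on the deposited scale. It was lost without nerve array 1 (adjusted p = 0.0554), 2 (0.125) or 3 (0.113) and stayed called without any 1 SKP-derived array (0.0192 to 0.0424). Id2, an inhibitor of differentiation factors, rose by 1.23 (SE 0.20, adjusted p = 0.0353), from 10.94, 10.44 and 10.15 to 11.64, 11.79 and 11.78. Zic2, a crest regulator, rose by 0.54 (adjusted p = 0.0457), with all 3 SKP-derived values of 5.82 to 5.92 above 5.26 to 5.45, but its difference on the deposited scale was -0.08. Id2 and Zic2 were lost without any 1 nerve array (0.0554 to 0.194) or any 1 SKP-derived array (0.0504 to 0.0856). These 3 are the called members of 16 measured crest regulators, whose median was 0.43 (-0.09 on the deposited scale, 0.26 without SKP-derived array 2 and 0.27 without array 3). Over all genes 2.26% were called higher. Foxd3, a factor of early crest named after its value was seen, went the other way (-0.90, adjusted p = 0.142). Mitf, the melanocyte factor, differed by 0.72 (0.24 to 1.20, adjusted p = 0.093), with SKPs at 8.86 to 9.82. Sox9 and Ednrb are not analysed here.

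Hox genes mark position along the body. Of 22 measured, 1 was called (4.01% of all genes), and 19 had an interval within 1 log2 unit of 0 (85.3% of all genes), both near the shares of all genes. Hoxb7 rose by 0.53 (SE 0.10, adjusted p = 0.0443), from 6.50 to 6.54 in nerve cells to 6.96, 6.99 and 7.17, and by 0.04 on the deposited scale, where all genes shifted by -0.45. Without 1 nerve array its adjusted p was 0.162 to 0.194, and it was also lost without SKP-derived array 1 (0.0504) and array 3 (0.0739). Among 25 other positional regulators and 13 SOX genes limma called 0, with 6 and 3 at an unadjusted p under 0.05 (25.4% of all genes). Of those without a call, Tbx15 of dorsal skin and Tbx3, both named after their values were seen, differed by 1.14 (adjusted p = 0.338) and 1.01 (adjusted p = 0.0737).

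Among the 20 largest rises, besides Pax3 and the genes described, were Cdkn3 (2.84), Cenpk (2.70), Pbk (2.61), Plk4 (2.44), Ect2 (2.35) and Cenpi (2.25), which act in chromosome segregation, centriole copying or cell division. Pclaf (2.34) and Fam111a (2.33) were there too. Pclaf binds PCNA and Fam111a is a protease that acts at replication forks. Sucnr1, the receptor for succinate, was at 7.50, 7.19 and 6.50 in nerve cells and at 9.61, 10.71 and 9.41 in SKP-derived cells, above SKPs at 4.71 to 5.17, a rise of 2.84 (SE 0.40, adjusted p = 0.0247). Cdh13, a cadherin anchored in the membrane by lipid, rose by 2.75 (SE 0.51, adjusted p = 0.044), from 9.36, 8.44 and 7.49 to 11.46, 10.46 and 11.62, with SKPs at 9.88 to 10.92. Cd3g, a chain of the T cell receptor complex, was at 4.34 to 4.88 in nerve cells and at 6.96, 8.07 and 7.12 in SKP-derived cells (2.74, adjusted p = 0.0214). In the same arrays Ptprc (CD45), found on all leukocytes, was at 4.15 to 4.54, and its difference was -0.04. Gria2, a glutamate receptor subunit, was at 4.93 to 5.19 against 8.02, 7.86 and 6.64 (2.48, adjusted p = 0.026). Pon1, an esterase of the blood, had the least spread of the 20 and rose by 2.23 (SE 0.15, adjusted p = 0.0116), from 4.87, 4.79 and 4.47 to 6.85, 6.80 and 7.16. Without 1 nerve array the adjusted p of the 20 lay between 0.051 and 0.178. Without 1 SKP-derived array limma kept 10 to 19 of the 20, and it lost Sucnr1 without array 3 (0.0536) and Cdh13 without array 1 (0.0722) or array 3 (0.0986).

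**Figure D4:**
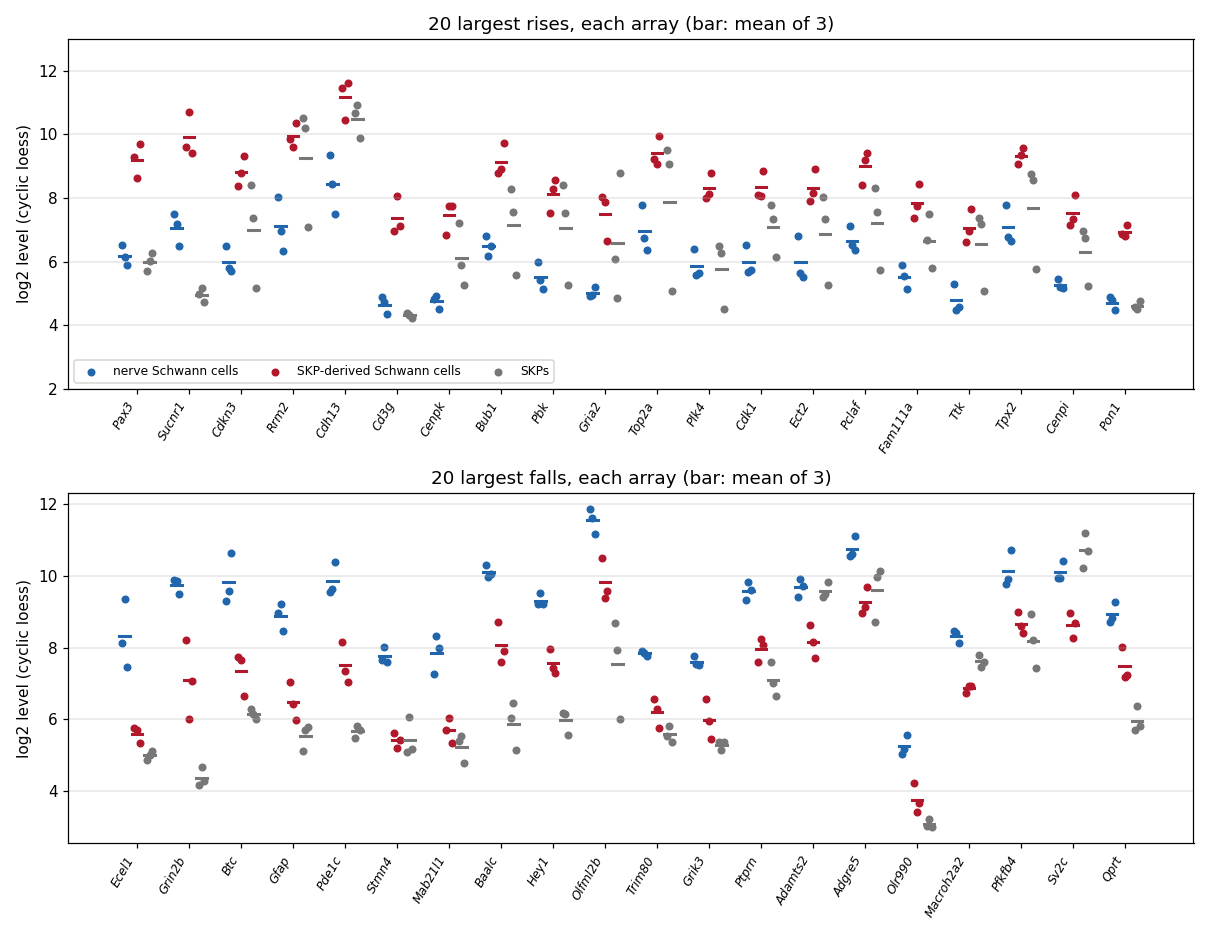
Level (y axis, log2 after cyclic loess) of the 20 genes with the largest rise (upper panel) and the 20 with the largest fall (lower panel) among called genes with no overlap between the groups, with 1 point per array and a bar at the mean of 3 arrays. Pax3 rose by 3.01 and Ecel1 fell by 2.71, and the SKP arrays (grey) of the genes that fell mostly lie below the nerve arrays (blue), with Sv2c and Adamts2 about as high as nerve cells.

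The largest fall was that of Ecel1, an endopeptidase of neurons, at 8.12, 9.35 and 7.48 in nerve cells and 5.76, 5.71 and 5.33 in SKP-derived cells (-2.71, SE 0.45, adjusted p = 0.0352). Grin2b, a subunit of the NMDA receptor, fell by 2.65 (SE 0.51, adjusted p = 0.0465), from 9.49 to 9.89 to 8.22 and 7.07 in arrays 1 and 3 and lower still in array 2, with SKPs at 4.16 to 4.67. Grik3, a kainate receptor subunit, fell by 1.63 (adjusted p = 0.036), so 2 glutamate receptor subunits fell while Gria2 rose. Stmn4, a stathmin that binds tubulin, had the least spread of the falls of at least 2 log2 units, at 7.66, 8.03 and 7.61 against 5.62, 5.21 and 5.43 (-2.35, SE 0.16, adjusted p = 0.0116). Pde1c, a cyclic nucleotide phosphodiesterase, fell by 2.35, and Mab21l1 and Baalc by 2.16 and 2.04. Ptprn and Sv2c, proteins of secretory vesicles, fell by 1.61 and 1.46, and Sv2c was at 10.24 to 11.21 in SKPs, overlapping the nerve cells at 9.95 to 10.42. Olfml2b, a secreted matrix protein, fell by 1.72, Macroh2a2, a histone variant, by 1.47, Qprt, of NAD synthesis, by 1.46, Adgre5 (CD97) by 1.50 and Trim80 by 1.64. The odorant receptor gene Olr990 fell by 1.49, at 5.04 to 5.55 against 3.40 to 4.23, a low level at percentile 10.3 of all genes tested. With any 1 nerve array left out, the adjusted p of the 20 falls lay between 0.053 and 0.187. Without 1 SKP-derived array limma kept 5 to 18 of them, and the 5 kept without array 3 were Stmn4 (0.0361), Trim80 (0.0361), Macroh2a2 (0.0409), Adgre5 (0.0483) and Hey1 (0.0496). Ecel1 was lost without any 1 SKP-derived array (0.0517 to 0.0823).

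Btc (betacellulin), a ligand of the EGF receptor family that Schwann cells raise after nerve injury, was at 9.30, 9.59 and 10.64 in nerve cells and at 7.75, 7.66 and 6.64 in SKP-derived cells, with SKPs at 6.01 to 6.30. It fell by 2.49 (SE 0.43, adjusted p = 0.0372), the only call among 22 measured genes of repair Schwann cells (median -0.25, and -0.16 without SKP-derived array 3) and among 13 of the neuregulin and EGF families. Over all genes 4.01% were called. Shh, a secreted signal of injured nerve named after its value was seen, was at 9.14, 9.43 and 9.24 against 7.93, 7.73 and 5.69 (-2.15, -3.49 to -0.81, adjusted p = 0.0817). Jun, the master factor of the repair state, differed by -0.44 (-1.23 to 0.34), and Gdnf, a trophic factor of repair cells, by -0.41 (-0.69 to -0.13, adjusted p = 0.0956). Nrg1, the ligand of ERBB3, was at 5.79 to 6.05 in nerve cells and at 6.67, 8.01 and 6.41 in SKP-derived cells (1.13, adjusted p = 0.143), below SKPs at 8.29 to 9.68. Among 28 neurotrophic factors and receptors limma called 0, with 6 at an unadjusted p under 0.05 (25.4% of all genes). Bdnf differed by 0.10 (-0.46 to 0.65), and by -0.17 without SKP-derived array 2. Btc was lost without 1 nerve array (0.0927 to 0.154) and without SKP-derived array 3 (0.0729).

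In the Notch pathway 2 of 17 measured genes fell, against 1.74% of all genes. Hey1, a target of Notch, was at 9.21, 9.52 and 9.21 in nerve cells and at 7.97, 7.44 and 7.30 in SKP-derived cells, above SKPs at 5.57 to 6.19 (-1.74, SE 0.20, adjusted p = 0.0214). Lfng, which modifies Notch receptors, fell by 0.91 (adjusted p = 0.0469). Jag1, a Notch ligand, and Hes1, another target, were named after their values were seen and differed by 1.08 (adjusted p = 0.118) and 0.92 (adjusted p = 0.242). Of the 17 differences 9 were positive and 8 negative, with a median of 0.01. In 6 genes every SKP-derived value lay below every nerve value (19.2% of all genes), and in 2 above (15.9%). Among BMP and TGF-beta genes (33 measured) Gdf10 rose by 0.58 and the receptor Bmpr2 fell by 0.56, besides the rise of Id2, a BMP target. Fgf1, an FGF that nerve glia hold, rose by 1.46 (SE 0.17, adjusted p = 0.0221), from 6.41, 6.53 and 6.15 to 7.85, 7.54 and 8.08, while SKPs were at 4.98 to 5.04. It was the only call of 26 FGF and IGF genes, near the 4.01% of all genes. Of the genes that answer to MAP kinase, Dusp6 rose by 1.01 (adjusted p = 0.0473) and Spry2, also a feedback inhibitor, fell by 0.64 (adjusted p = 0.0263), and the immediate early gene Ier2 rose by 1.37 (adjusted p = 0.024). Among 33 Wnt genes limma called 0, with 7 at an unadjusted p under 0.05 (25.4% of all genes). Over the fits without 1 nerve array the adjusted p was 0.0684 to 0.129 for Hey1, 0.11 to 0.194 for Lfng, 0.0752 to 0.125 for Fgf1, 0.0909 to 0.133 for Ier2, 0.0945 to 0.16 for Spry2 and 0.15 to 0.194 for Dusp6. That of Gdf10 was 0.144 to 0.178 and that of Bmpr2 0.162 to 0.194. Without SKP-derived array 3, Lfng (0.1), Gdf10 (0.0722), Bmpr2 (0.0739), Dusp6 (0.0714) and Spry2 (0.0593) were lost, as were Bmpr2 (0.0513) and Dusp6 (0.0693) without array 1 and Lfng (0.0672) without array 2.

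Adhesion molecules moved both ways, with 2 of 33 higher (Cdh13 and Nrcam) and 2 lower (L1cam and Alcam), against 2.26% and 1.74% of all genes. Nrcam, which gathers channels at nodes, was at 8.96, 8.36 and 8.02 in nerve cells and at 9.69, 9.42 and 9.84 in SKP-derived cells, a rise of 1.21 (SE 0.25) whose adjusted p of 0.05, as rounded, is just under the threshold. Alcam, a related molecule, fell by 1.05 (SE 0.21, adjusted p = 0.0497), from 10.83 to 10.96 to 10.08, 10.13 and 9.36. Among 22 collagens 2 fell and 19 differences were negative, with a median of -0.23. Col3a1, a fibrillar collagen, was at 9.54, 9.68 and 9.44 against 8.25, 8.80 and 8.45 (-1.06, adjusted p = 0.0307), and Col1a2 fell by 0.92 (adjusted p = 0.036), while Col1a1, the chain that pairs with it, differed by -0.79 (-1.35 to -0.22, adjusted p = 0.108). Adamts2, the protease that trims procollagen, fell by 1.52 (adjusted p = 0.0352), from 9.43, 9.93 and 9.71 to 8.63, 8.16 and 7.71, with SKPs at 9.42 to 9.84. Mmp23 fell by 0.85 (adjusted p = 0.0211). Of 38 ion channel genes 2 fell, the sodium channel subunit Scn3b by 1.22 and the potassium channel Kcnj8 by 0.89. Of 37 axon guidance genes 1 did, Ntng1 by 0.58, from a mean of 4.49 to 3.91. The level of Ntng1 was low, at percentile 7.59 of all genes tested. Over all genes 1.74% fell, and counts this small say little about a family. For 18 basal lamina genes limma called 0, with 6 at an unadjusted p under 0.05 (25.4% of all genes). With any 1 nerve array left out, the adjusted p of these genes lay between 0.0677 (Nrcam) and 0.206 (Ntng1), and Nrcam was lost without any 1 SKP-derived array (0.0543 to 0.109). Without array 3, Col3a1 (0.0714), Col1a2 (0.0797), Adamts2 (0.0639), Scn3b (0.0594), Kcnj8 (0.0739) and Ntng1 (0.0992) were lost. Without array 2, Adamts2 (0.0518), Kcnj8 (0.0522) and Ntng1 (0.0618) were, and without array 1, Alcam (0.0574).

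In metabolism, 3 of 18 genes of serine synthesis and amino acid stress rose, against 2.26% of all genes. The median of the 18 was 0.26 (-0.04 on the deposited scale, and 0.09 without SKP-derived array 2), against -0.02 over all genes. Psat1, an enzyme of serine synthesis, was at 9.38, 9.33 and 8.46 in nerve cells and at 10.43, 11.12 and 10.97 in SKP-derived cells (1.78, SE 0.29, adjusted p = 0.036), and a second feature of the gene differed by 1.20 (adjusted p = 0.0473). Mthfd2, of mitochondrial folate metabolism, rose by 1.47 (adjusted p = 0.0458), and Slc7a5, a carrier of large amino acids, by 1.06 (adjusted p = 0.044). Asns, in the same list and named after its value was seen, differed by 1.44 with overlapping groups (adjusted p = 0.214). Hsd17b7 rose by 1.13 (adjusted p = 0.0211), the only call among 17 genes of cholesterol synthesis (median 0.31, and 0.19 without SKP-derived array 2), against 4.01% of all genes. Pfkfb4, which sets glycolytic flux, fell by 1.47 (adjusted p = 0.0443), from 9.77, 9.92 and 10.72 to 8.98, 8.61 and 8.42. It was the only call of 30 hypoxia and glycolysis genes, near the 4.01% of all genes. Among 31 cytosolic ribosomal proteins limma called 0, with 6 at an unadjusted p under 0.05 (25.4% of all genes), and 30 of the 31 differences were positive (median 0.32, and 0.22 on the deposited scale). Without SKP-derived array 1 it called 4 of them, all higher. Without 1 nerve array the adjusted p was 0.0962 to 0.139 for Psat1, 0.152 to 0.17 for Mthfd2, 0.115 to 0.161 for Slc7a5, 0.074 to 0.125 for Hsd17b7 and 0.101 to 0.167 for Pfkfb4. Without SKP-derived array 3 all 5 were lost (0.051 for Hsd17b7 to 0.0976 for Pfkfb4), without array 2 Psat1 (0.0525), Slc7a5 (0.0522) and Pfkfb4 (0.0634), and without array 1 Slc7a5 (0.0686) and Pfkfb4 (0.0504).

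Over 11 lists of markers of other cells that the cultures could hold, 9 of 169 genes (5.33%) were called, against 4.01% of all genes. Of 26 dermal mesenchyme genes, 0 rose and 2 fell (Col1a2 and Col3a1), with a median of -0.12 (0.07 after centring on the median, and -0.30 without array 2 of both groups). With 1 array left out this median ran from -0.45 (without SKP-derived array 2) to 0.29 (without SKP-derived array 1, where 1 gene was called higher and 3 lower), and it was 0.11 without nerve array 2. Pdgfra, a receptor of mesenchymal cells, was at 6.97, 8.17 and 6.41 in nerve cells and at 5.83, 8.03 and 6.78 in SKP-derived cells, with SKPs at 9.76 to 11.91. The groups overlapped, array 2 was the highest in each, and the difference of -0.31 (-1.83 to 1.22) turned to 0.19 without nerve array 2 and to 0.22 without SKP-derived array 1. Thy1, a surface protein of fibroblasts, was at 6.88, 7.87 and 6.25 against 7.36, 11.43 and 9.72 (2.51, 0.16 to 4.86, adjusted p = 0.176). Of 20 smooth muscle and pericyte genes 1 fell, the channel Kcnj8 of pericytes (-0.89, adjusted p = 0.0363, and 0.133 to 0.178 without 1 nerve array, 0.0522 without SKP-derived array 2 and 0.0739 without array 3), and Acta2, smooth muscle actin, differed by -0.12 (-0.40 to 0.16). Lyz2, a lysozyme of macrophages, fell by 0.96 (adjusted p = 0.024), from 5.56 to 5.90 to 4.73 to 4.88, a low level at percentile 19.7 of all genes tested. The 20 immune markers averaged 5.64 to 5.74 in nerve arrays and 5.51 to 5.70 in SKP-derived arrays, against 8.11 in SKP array 1. Tek fell by 1.10 among 13 endothelial genes, Grhl3 rose by 0.95 among 10 of keratinocytes, and Mlana rose by 0.78 among 8 of melanocytes, where it was at 4.92 to 5.02 in nerve cells, 5.55 to 6.07 in SKP-derived cells and 6.95 to 10.16 in SKPs. Alpl, an enzyme of the dermal papilla, rose by 0.75 and Hey1 fell by 1.74 among 21 genes of SKPs and dermal papilla. For adipocyte, neuron, skeletal muscle and perineurial markers limma called 0 of 52, with 11 at an unadjusted p under 0.05 (25.4% of all genes). The part of such cells in the differences between the Schwann cell groups was not tested. With any 1 nerve array left out, the adjusted p was 0.0853 to 0.133 for Lyz2, 0.141 to 0.178 for Tek, 0.119 to 0.152 for Grhl3, 0.158 to 0.194 for Mlana and 0.0825 to 0.135 for Alpl. Without SKP-derived array 3, Lyz2 (0.0571), Tek (0.0662), Mlana (0.067) and Alpl (0.0529) were lost, and without array 1, Tek (0.0508) and Mlana (0.0591).

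**Figure D5:**
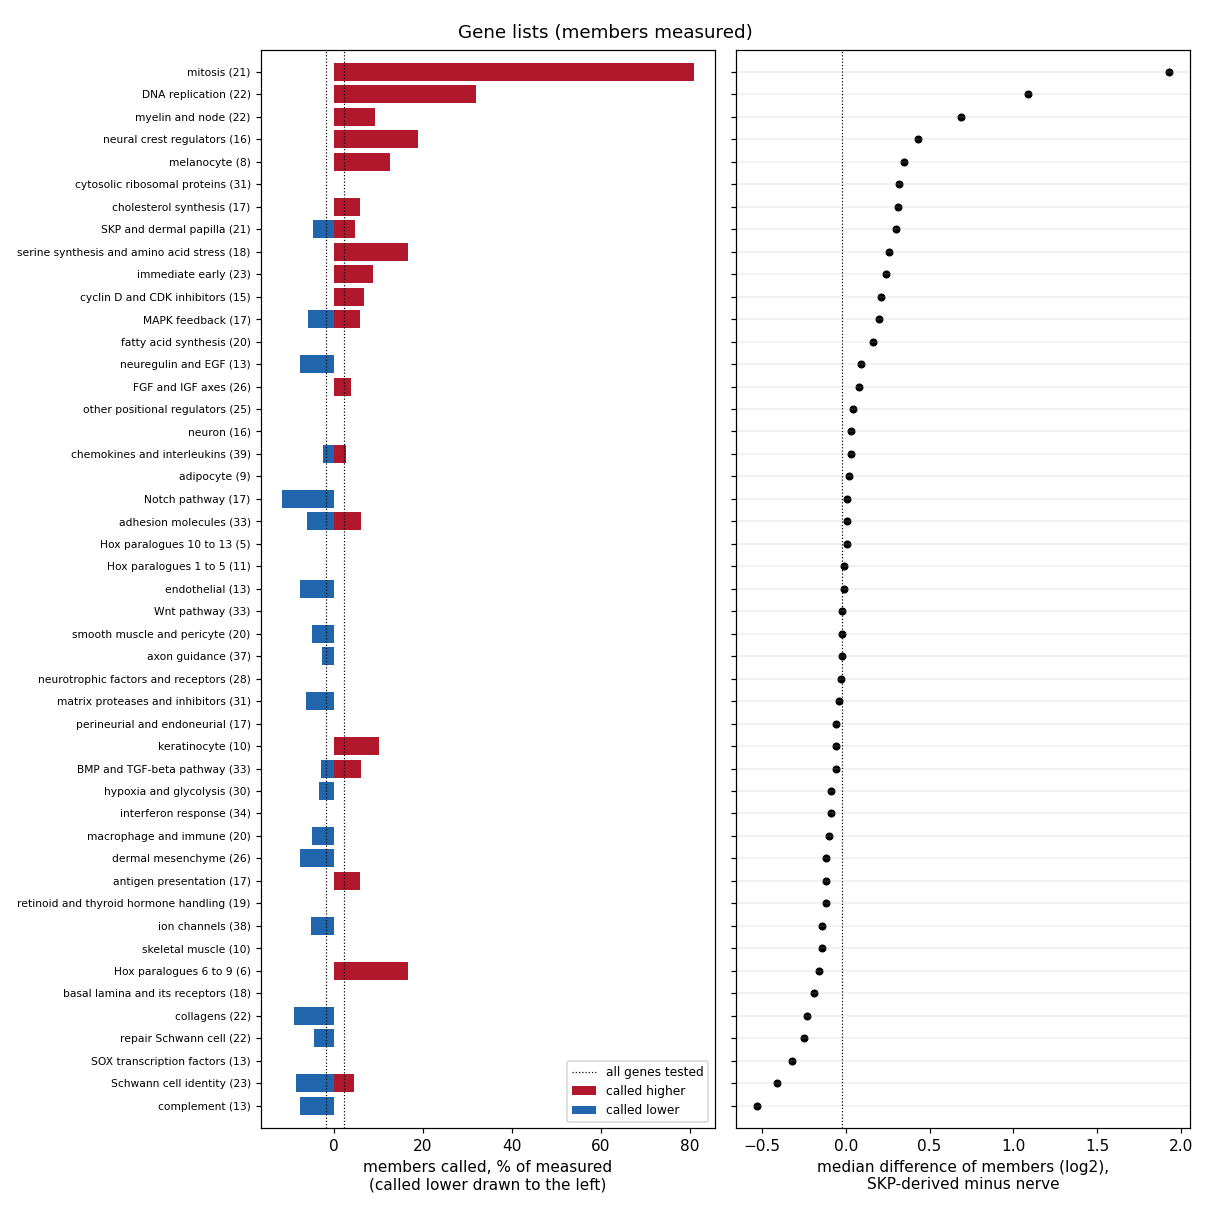
Share of the measured members of 47 gene lists that were called higher (red, to the right) and lower (blue, to the left), in percent, and the median difference of the members (log2) in the right panel, with the number measured in brackets. Dotted lines give the share and median over all genes tested, 2.26% higher, 1.74% lower and -0.02, and mitosis stands at the top with 17 of 21 called and a median of 1.93.

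Of 103 genes in 4 lists of inflammation, 4 were called (3.88%), near the 4.01% of all genes. Among 34 interferon response genes limma called 0, with 9 at an unadjusted p under 0.05 (25.4% of all genes), and 28 had an interval within 1 log2 unit of 0 (85.3% of all genes). Psmb9, a subunit of the immunoproteasome, rose by 0.86 (adjusted p = 0.0347), 1 of 17 genes of antigen presentation. Of 39 chemokines and interleukins, Csf3 rose by 0.73 and Il11 fell by 0.54, from 5.20 to 5.24 to 5.93 to 5.99 and from 6.62 to 6.68 to 6.03 to 6.14. Cd46, a complement regulator, fell by 0.53 (adjusted p = 0.0352), from 8.62 to 8.63 to 8.06 to 8.13. Cd55, another one, was named after its value was seen and stood at 7.37 to 7.87 in nerve cells and 10.75, 11.38 and 8.84 in SKP-derived cells (2.68, adjusted p = 0.0625). Without 1 nerve array the adjusted p was 0.121 to 0.153 for Psmb9, 0.0896 to 0.133 for Csf3, 0.144 to 0.178 for Il11 and 0.144 to 0.178 for Cd46. Without SKP-derived array 3, Psmb9 (0.0568), Il11 (0.0681) and Cd46 (0.067) were lost, and without array 1, Psmb9 (0.0508).

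Several of the widest differences were not called, and in them the SKP-derived arrays lay far apart. These genes were chosen after their values were seen. Apod, a lipid carrier that rises in injured nerve, was at 12.03, 12.96 and 10.64 in nerve cells and at 7.34, 10.59 and 7.83 in SKP-derived cells (-3.29, -5.53 to -1.04, adjusted p = 0.0976). Sparcl1, a matrix protein, was at 12.63, 11.29 and 11.11 against 9.45, 9.38 and 7.15 (-3.02, adjusted p = 0.0651). Il1rl1, the receptor for interleukin 33, was at 4.97 to 5.36 in nerve cells and at 5.89, 8.99 and 8.98 in SKP-derived cells (2.78, adjusted p = 0.0996), and Mmp3, a matrix protease very high in SKPs (13.46 to 13.71), at 5.71 to 6.35 against 6.62, 9.45 and 9.52 (2.52, adjusted p = 0.106). In Il1rl1 and Mmp3, as in Thy1, SKP-derived array 1 lay near the nerve cells and arrays 2 and 3 well above. Tyrp1, of melanin synthesis, was at 5.80 to 6.10 in nerve cells and 10.08, 7.41 and 6.56 in SKP-derived cells (2.06, adjusted p = 0.184). Without SKP-derived array 1 the adjusted p (limma) of Il1rl1 was 0.0078 and that of Mmp3 0.0202. Both genes were picked with this pattern in view, so these 2 values are no test of them.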

How the data were processed

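RNA of 9 cultures was hybridised to Affymetrix Rat Gene 1.0 ST arrays. The deposited values are log2 expression per feature. The submitters' processing notes name RMA and Affymetrix Expression Console, and whether all arrays were normalised together is not given in the sources used here. Array medians differed between groups, so all features of the 9 arrays were rescaled by cyclic loess (span 0.7, 3 iterations). Features with 1 gene symbol in the platform annotation were kept (323 features named several genes and 13581 none), and a gene with several features (527 genes) was read from the one with the highest mean. Groups were taken from the labelled cell type. The 6 Schwann cell arrays were fitted with limma 3.58.1 (lmFit and eBayes, R 4.3.3) without a filter on low values, with Benjamini-Hochberg adjustment and a threshold of 0.05. A run on simulated data with loose limits checked only that the code worked, and is no test of the calls. Intervals are 95% intervals of the fit to the 6 arrays. With 3 arrays a group, the number of arrays limits the precision, and if samples came from shared animals the p-values measure only the spread between these samples. The text names the 20 largest rises and 20 largest falls (called, with no overlap between the groups), at most 6 called genes from each of 47 lists, and 23 measured genes picked for their role. Any other gene is said to be named after its value was seen. The members and lists were chosen with earlier results of these data known. Of 1060 genes on the lists, 900 were measured. Promoters are from RefSeq (GRCr8). Alternatives changed the scaling, the arrays, the filter, the features, the variance model, the threshold and the replicate block.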

Additional observations from a re-analysis of the deposited data

Results flagged for a closer look

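Signal was present in features that the gene comparisons do not use. Of 13904 features that name no gene or several genes, limma called 416 (2.99%) between the Schwann cell groups, 242 higher and 174 lower in SKP-derived cells, against 4.01% of the named genes. What these features measure was not tested.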

How the results depend on the processing

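All 581 called genes kept their direction in each setting that tested them, except 27 on the deposited scale and 1 after centring on the median. The genes were called from these same arrays, so kept directions are no independent check. How many were called depended on the setting. The counts of called genes, all, higher and lower, were 7396, 295 and 7101 as deposited, 1298, 823 and 475 with median centring, 334, 201 and 133 in all 4 scalings, 198, 110 and 88 with SKPs in the fit, and 135, 94 and 41 without genes below the median level, where 5779 genes had an interval within 1 log2 unit. At an adjusted p under 0.01 they were 1, 1 and 0, and against a 2-fold minimum 0 each (limma treat, 123 genes at an unadjusted p under 0.05). Leaving out 1 array gave 0 to 635 calls, 0 to 355 higher and 0 to 280 lower. Whether the sample numbers pair the arrays was not settled. Over all genes, nerve and SKP-derived arrays of the same number correlated at 0.982, 0.961 and 0.967. After the group mean of each gene was subtracted, these correlations were 0.0632, 0.317 and 0.0904, and those of the other pairs ran from -0.265 to 0.192. On the subtracted values, nerve arrays 1 and 2 correlated best with the SKP-derived array of the same number, and nerve array 3 with SKP-derived array 1 (0.192). With the replicate block 20 genes were called, 13 higher and 7 lower, and of the lists 1 identity gene lower and 0 identity, myelin, mitosis or replication genes higher.

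Identity genes called higher numbered 2 with median centring and 0 with quantile scaling, loess over 6 arrays, SKPs in the fit and the filter. Those called lower numbered 8 as deposited and 1 with median centring, SKPs in the fit and the filter. Myelin genes called higher were 5 as deposited and 0 with SKPs in the fit. Mitosis and replication genes called higher were 1 and 1 with SKPs in the fit and 9 and 4 with the filter. All 5 list counts were 0 at 0.01, with the 2-fold minimum and without array 2 of both groups. Leaving out 1 array gave 0 to 1 identity genes higher and 0 to 4 lower, 0 to 2 myelin, 0 to 15 mitosis and 0 to 10 replication genes. Directions turned for Acta2 (0.08, median centring), Zic2 (-0.08 as deposited), Bdnf (-0.43 as deposited, -0.06 with array weights, -0.12 without array 2 of both), Pou3f1 (-0.03 as deposited) and Pmp22 (-0.02 with quantile scaling and with loess over 6 arrays). With 1 array left out, the differences ran from -0.17 (without SKP-derived array 2) to 0.27 for Bdnf, -0.57 to 0.02 (without SKP-derived array 3) for Cdh19, -0.03 (without nerve array 3) to 0.54 for Mbp, -0.88 to 0.22 (without SKP-derived array 1, and 0.19 without nerve array 2) for Pdgfra, -0.11 (without SKP-derived array 1, and -0.05 without nerve array 3) to 0.14 for Pmp22, -0.15 (without SKP-derived array 3) to 0.66 for Pou3f1 and -0.14 to 0.06 (without SKP-derived array 1) for Ptprc. The causes were not tested beyond the fewer genes or arrays that a setting leaves. Array 2 of both groups was left out, the calls under all 4 scalings were counted and the CHR and CCAAT motifs were chosen after seeing the data.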

Other observations

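Chp2, which encodes a calcium-binding partner of sodium-proton exchangers, had the lowest adjusted p of all genes (limma, 0.00861) and is named here for that value. It was at 5.33, 5.44 and 5.27 in nerve cells, at 7.31, 7.47 and 7.62 in SKP-derived Schwann cells and at 4.87 to 5.34 in SKPs, a difference of 2.12 (SE 0.12). Its groups lay far apart, and it was the only gene called at an adjusted p under 0.01.

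The following genes were singled out after their values were seen. Nefm, a neurofilament subunit, was at 7.11 to 7.32 in nerve cells and at 10.09 and 10.20 in SKP-derived arrays 1 and 2, but at 7.17 in array 3. Its difference of 1.96 was not called (adjusted p = 0.177), and without SKP-derived array 3 the adjusted p (limma) was 0.0086. Nefm was picked with this pattern in view, so the value without array 3 is no test of it. Cntf, a trophic factor of Schwann cells, was at 7.70 to 7.95 in nerve cells and at 10.09, 9.21 and 8.25 in SKP-derived cells (1.34, adjusted p = 0.116). Aspn and Lum, matrix proteins of fibroblasts, were highest in array 2 of both groups. Aspn was at 5.71, 8.20 and 4.60 in nerve cells and 5.70, 11.92 and 8.41 in SKP-derived cells, and Lum at 7.80, 10.25 and 5.75 against 7.11, 11.90 and 9.49.

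Of 20 genes of fatty acid synthesis and 19 of retinoid and thyroid hormone handling, limma called 0, with 5 of each list at an unadjusted p under 0.05 (25.4% of all genes) and medians of 0.16 and -0.12.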
